A study of Caenorhabditis elegans with 17 samples.

Results

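The genes described here encode the nuclear pore complex and the soluble factors that carry cargo through it. They were taken from the deposited table of oocyte mRNA by name, as every gene whose name begins with *npp-*, *ima-*, *imb-*, *xpo-* or *ran-* followed by a digit. This gave 39 of the 21459 genes in the table, of which 25 are *npp* genes, 3 *ima*, 3 *imb*, 3 *xpo* and 5 *ran*. RNA came from oocytes cut from the gonad arm of wild-type *C. elegans* hermaphrodites, with a little gonadal sheath still attached. Of the 17 libraries in the labels, 8 were from mothers moved at the L4 stage to 300 mM NaCl and 9 from mothers kept on control NGM, both until the first day of adulthood. Control NGM also holds NaCl, at the lower level of normal laboratory plates. No allele or transgene is named for either group. The labels carry 3 replicate numbers in each group, with letters within a number. The design was 3 replicates per condition, each of 3 oocytes cut from 1 animal. How the 17 libraries relate to those animals is not given in the sources used here, so libraries that share a number may share an animal.

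The value used was the mean normalized count, which the authors averaged over the libraries of both groups together after scaling each library for its depth. It has no error and no number of libraries attached, and the sources do not say which libraries entered it. Levels in the 300 mM NaCl and control groups were not analysed here, because the remaining columns hold the authors' own comparison. The values below therefore describe oocytes of both conditions pooled. The depth of each library is unknown, so no interval was given, and an order of neighbouring levels could not be set against a spread between libraries. Where genes are compared with each other, the mean normalized count was divided by the length of all annotated exons of the gene in WBcel235 and is given per kb. This measure takes reads to fall evenly over the exons of a gene, which was not tested.

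The nuclear pore complex is a ring of nucleoporins set into the nuclear envelope. Y-shaped subcomplexes form its outer rings, an inner ring anchors the channel, nucleoporins rich in phenylalanine-glycine repeats fill the channel, and filaments and a basket extend on its cytoplasmic and nuclear sides. Importins carry cargo inward and exportins outward, and the GTPase Ran, kept in its GTP form inside the nucleus, sets the direction. In the worm, oocytes dismantle the envelope at maturation, and the early embryo rebuilds pores after each division from proteins and mRNA that the oocyte supplied.

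Most of the pore and transport genes were abundant in these oocytes. The mean normalized count was at least 10 for 39 of 39 members and at least 100 for 37, against 52.6% and 30.8% of all genes. Their median was 1240.5, against 12.3 over all genes and 192 over protein-coding genes with a mean of at least 10. Per kb the members had a median of 409, against 14.2 over all genes with a length and 146 over those protein-coding genes. By level per kb, the median member lay at percentile 88.4 of all genes, and at 78.1 among genes with a mean of at least 10. In sum, the members held 1.16% of the mean normalized count of the table. Per kb, 34 of the 39 lay within 2-fold of the members' median. The 5 outside this range were *ran-1*, *ima-2* and *npp-9* on the high side and *npp-26* and *npp-25* on the low side.

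Per kb, 37 members lay above the median of the protein-coding genes, which was 17.7, and *npp-25* and *npp-26* lay below it. At least 100 mean normalized counts per kb were reached by 37 of 39 members and by 33.7% of the 17713 protein-coding genes. The lowest of these 37 was *npp-7* with 278 per kb, at percentile 81.6, and the next gene down, *npp-26*, had 12.6 per kb.

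**Figure D1:**
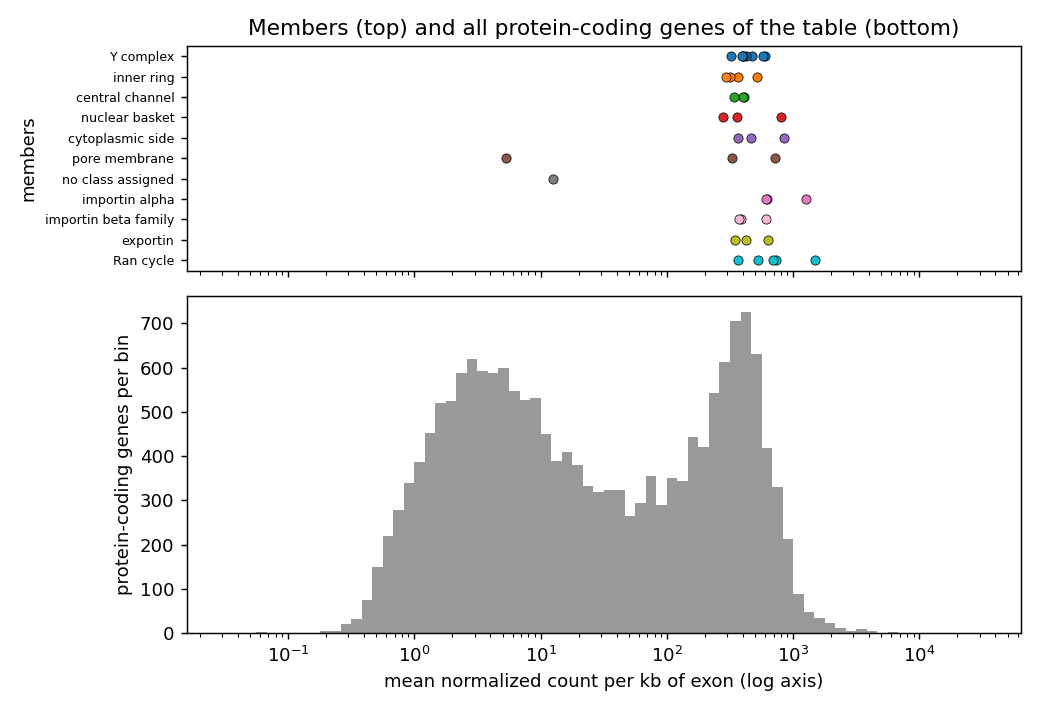
The upper panel places each of the 39 members, by structural class, at its mean normalized count per kb (log axis), and the lower panel counts all protein-coding genes of the table in bins of the same axis. The members lie in the upper part of the gene distribution, apart from *npp-25* at 5.28 and *npp-26* at 12.6 per kb.

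The Y complex builds the outer rings of the pore and also acts at kinetochores in dividing worm embryos. Its 8 members spanned 1.87-fold per kb, with a median of 413. The highest was *npp-18*, the Seh1 counterpart, at 600.3 per kb and a mean normalized count of 782 (chromosome III from 13296853 to 13298993). *npp-2*, the Nup85 counterpart that joins Seh1 in the short arm, was close to it at 575 per kb and a mean of 1094. *npp-10* followed at 469 per kb and a mean of 2622. Its transcript encodes a precursor that is cut into Nup98, a channel and basket protein, and Nup96, the Y complex subunit, so its level belongs to both.

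The other Y complex genes were nearly level with each other. *npp-23* (Nup43) had 426 per kb, *npp-20* (Sec13, shared with the coat of vesicles that leave the endoplasmic reticulum) 401, *npp-5* (Nup107) 399 and *npp-15* (Nup133) 396. Their mean normalized counts were 528, 458, 1039 and 1436, in step with their lengths. *npp-6*, the Nup160 counterpart in the long arm, was the lowest of the class at 321 per kb, with a mean of 1538 (chromosome I from 5176829 to 5182801). *mel-28*, which encodes the ELYS counterpart that brings the Y complex to chromatin and was not selected by name, had 314 per kb and a mean of 1714.

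In the inner ring the levels ran from 294 to 513 per kb. *npp-19*, which encodes the short membrane-binding Nup35, was the highest at 513 per kb and a mean of 713 (chromosome II from 10796653 to 10798479). *npp-8* (Nup155) had 363 per kb and a mean of 1673, and *npp-13* (Nup93) 316 per kb and a mean of 1034. *npp-3* (Nup205), a large scaffold protein, was lowest at 294 per kb with a mean of 1601 (chromosome II from 11865431 to 11874788). The gap between *npp-19* and *npp-3* was 1.74-fold per kb.

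The central channel genes spanned 1.20-fold per kb of exon and 1.64-fold per kb of coding sequence, where *npp-1* was the highest of them. Their products, the counterparts of Nup62, Nup54 and Nup58, assemble as one complex that carries phenylalanine-glycine repeats. *npp-11* (Nup62) had 409 per kb, *npp-1* (Nup54) 403 and *npp-4* (Nup58) 340, with means of 1061, 1195 and 615. *npp-11* lies on chromosome I from 3818074 to 3821496 and *npp-4* on the same chromosome from 14701122 to 14706522.

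The nuclear basket and the cytoplasmic side each had 1 gene well above its class. *npp-16*, whose product Nup50 also helps importin alpha release cargo in vertebrates, had 799 per kb and a mean of 1293 (chromosome III from 11915928 to 11917873). The basket filament gene *npp-21* (TPR) had 359 per kb and a mean of 2193, and *npp-7* (Nup153) 278 per kb and a mean of 1240.5 (chromosome I from 5692264 to 5697500). *npp-16* was 2.88-fold above *npp-7* per kb, although their mean normalized counts differed 1.04-fold, since the exons of *npp-7* are longer.

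On the cytoplasmic side, *npp-9* was the highest, 1.06-fold above *npp-16* of the basket per kb. It encodes the counterpart of Nup358, a protein that binds Ran, and had 847 per kb and a mean of 2574 (chromosome III from 3400638 to 3404479). *npp-24* (Nup88) had 460.2 per kb with a mean of 981, and *npp-14* (Nup214), which helps exported mRNA leave the pore, had 366 per kb with a mean of 1589 (chromosome I from 9660174 to 9664915). *npp-9* was thus 2.31-fold above *npp-14*. *rae-1*, an mRNA export factor of the same side that the name rule did not take, had 382 per kb and a mean of 680.2.

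The membrane nucleoporins differed most. *npp-22*, the NDC1 counterpart that helps insert pores into the envelope, had 719 per kb and a mean of 1414 (chromosome V from 11731120 to 11733472). *npp-12*, the counterpart of gp210, had 327 per kb and a mean of 1938. *npp-25*, the counterpart of TMEM33, had 5.28 per kb and a mean of 11.1 (WBGene00012555, chromosome III from 12920266 to 12925997), which was 136-fold below *npp-22* per kb and at percentile 33.3 of all genes. Only 813 bp of its 2094 bp of exon are coding in its longest coding sequence, and per kb of coding sequence the gap to *npp-22* was 58.9-fold. *npp-26*, to which no place in the pore was assigned here, was the only other member of this low kind, with 12.6 per kb and a mean of 20.3 (WBGene00021198, chromosome IV from 4764722 to 4767956). Neither lies on the X chromosome.

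**Figure D2:**
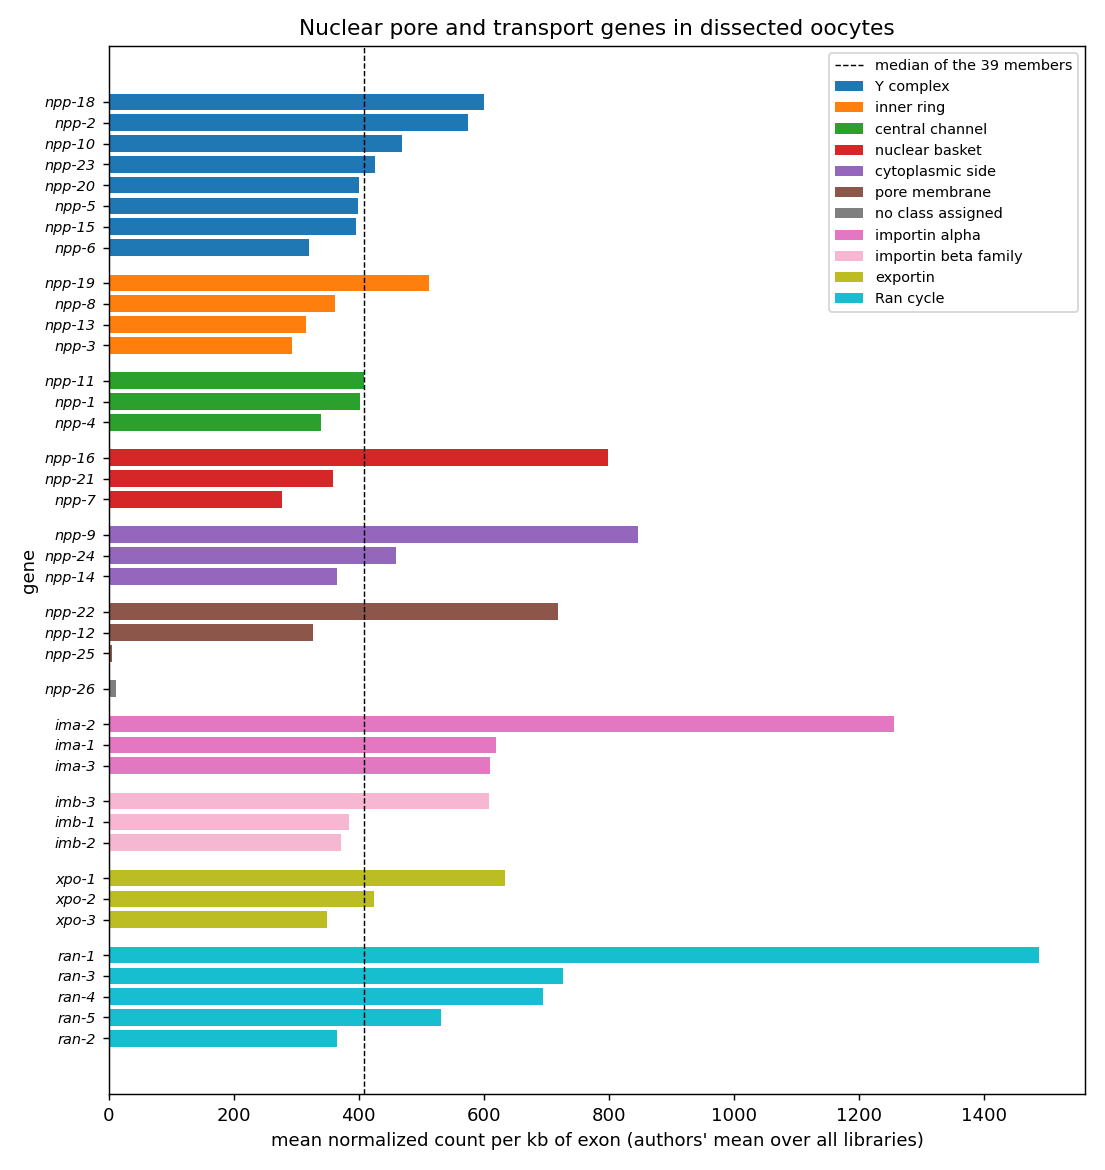
Bars give the mean normalized count per kb of exon for each of the 39 members, grouped by structural class and sorted within it, and the dashed line marks their median of 409. *ran-1* (1488) and *ima-2* (1256) have the longest bars, and those of *npp-25* and *npp-26* are barely visible.

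Per kb, the median of the soluble transport factors was above that of the nucleoporins. The 14 genes of the *ima*, *imb*, *xpo* and *ran* families had a median of 609.998 per kb, and the 25 *npp* genes one of 399. Without *npp-25* and *npp-26*, the *npp* median was 401 per kb. By mean normalized count the medians lay closer together, at 1332 for the transport factors and 1195 for the *npp* genes. That of the *npp* genes without *npp-25* and *npp-26* was 1240.5. No test was made of these differences, since genes are not replicates. The ranges overlapped widely (349 to 1488 per kb for the transport factors, 278 to 847 for those 23 *npp* genes).

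Ran and the proteins of its cycle included the highest member. *ran-1*, which encodes Ran itself, had 1488 per kb and a mean of 1427 (WBGene00004302, chromosome III from 10746581 to 10747728), at rank 168 of 21399 genes per kb. *ran-3*, for the chromatin-bound exchange factor RCC1 that loads Ran with GTP, had 727 per kb and a mean of 1572 (chromosome II from 8322612 to 8325052). *ran-4*, for NTF2, which returns Ran to the nucleus, had 694 per kb and a mean of 441 (chromosome I from 8591215 to 8591978).

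The remaining Ran cycle genes were lower. *ran-5*, the RanBP3 counterpart, had 532 per kb and a mean of 686 (chromosome II from 6048109 to 6049686). *ran-2*, for the activating protein RanGAP that makes Ran hydrolyse GTP in the cytoplasm, had 366 per kb and a mean of 1240.1 (chromosome III from 7933535 to 7937708). Per kb, the level of *ran-1* was therefore 2.05-fold that of *ran-3* and 4.07-fold that of *ran-2*. By mean normalized count these ratios were 0.91 and 1.15, so the gaps per kb rest mainly on the shorter exons of *ran-1*.

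Importin alpha binds the classical import signal of a cargo and is itself carried by importin beta. All 3 worm genes were high. *ima-2* had 1256 per kb and a mean of 2265 (WBGene00002073, chromosome I from 6315233 to 6317262), at rank 227 of all genes per kb. *ima-1* had 619.957 per kb and a mean of 1196 (chromosome V from 11239675 to 11241792), and *ima-3*, which is needed for oogenesis in the worm, had 611 per kb and a mean of 1597 (chromosome IV from 7558726 to 7561664). *ima-2* was 2.06-fold above *ima-3*, while *ima-1* and *ima-3* differed 1.01-fold. Per kb of coding sequence *ima-2* was 1.37-fold above *ima-3*, which was itself 1.36-fold above *ima-1*, so the order of *ima-1* and *ima-3* depends on the length used.

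Among the import receptors of the importin beta family, *imb-3* (importin 5, a carrier of ribosomal proteins and histones) was the highest with 609 per kb and a mean of 2259.9 (chromosome I from 310981 to 314989). *imb-1*, for importin beta itself, had 385 per kb and a mean of 1349 (chromosome I from 4920683 to 4926486). *imb-2*, for transportin, had 371 per kb and a mean of 1202 (chromosome II from 14365701 to 14373901). Per kb, *imb-1* was thus below each of the importin alpha genes whose products its own product carries. By mean normalized count it was above *ima-1* (1196) and below *ima-2* and *ima-3*.

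The exportins showed a similar spread. *xpo-1*, for the export receptor of proteins with leucine-rich signals, had 634 per kb and, with 2744, the highest mean normalized count of the 39 genes (WBGene00002078, chromosome V from 7805064 to 7814656). *xpo-2*, for CAS, which returns importin alpha to the cytoplasm, had 425 per kb and a mean of 1316 (chromosome I from 318549 to 323352). *xpo-3*, for the tRNA exportin, had 349 per kb and a mean of 1191 (chromosome IV from 7916689 to 7924032). *xpo-1* was 1.49-fold above *xpo-2* and 1.81-fold above *xpo-3*.

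Members with longer exons had higher mean normalized counts but lower levels per kb. Across the 37 members other than *npp-25* and *npp-26*, Spearman's rho of exon length with mean normalized count was 0.67, and with the level per kb it was -0.61. Over all 39 members the values were 0.67 and -0.49. Across the 10562 protein-coding genes with a mean of at least 10, the values were 0.29 and -0.13. The level per kb is the mean divided by exon length, so length enters both terms of the second rho and pulls it downward. The negative values are therefore partly built in. These are descriptions across genes, which share the same libraries and are not independent replicates. By length, with *npp-25* and *npp-26* included, the 2 members with up to 1000 bp of exon (*ran-1* and *ran-4*) had a median of 1091 per kb, the 12 with up to 2000 bp one of 553, the 16 up to 4000 bp one of 401, and the 9 longer members one of 359. Protein-coding genes with a mean of at least 10 in the same length classes had medians of 178, 135, 147 and 89.1 per kb.

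**Figure D3:**
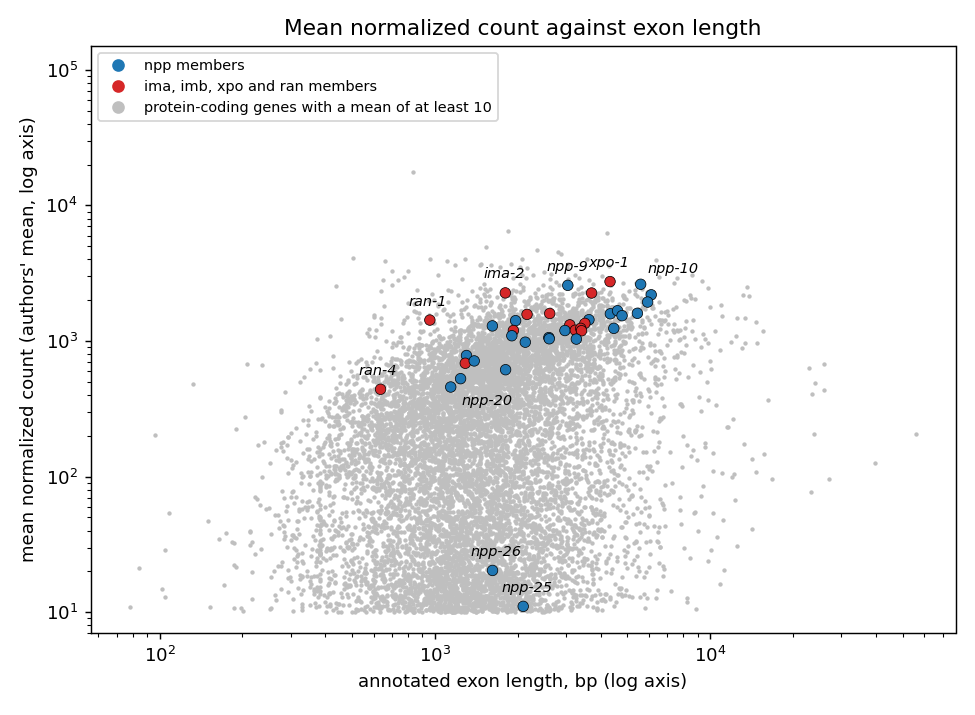
Each point is a gene, placed by its annotated exon length in bp and its mean normalized count (both log axes), with the 25 *npp* members in blue, the 14 transport factors in red and protein-coding genes with a mean of at least 10 in grey. The members follow the upper part of the cloud, with *ran-1* and *ima-2* high for their length and *npp-25* and *npp-26* near the bottom.

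The 39 genes lie on the autosomes, 13 on chromosome I, 8 on II, 8 on III, 7 on IV and 3 on V. None is on X, which holds 13.4% of the protein-coding genes in the table. Chromosome I holds 15.6% of those genes and 33.3% of the members. The medians of all protein-coding genes differed between chromosomes, with mean normalized counts of 93.5 on I, 19.1 on II, 106 on III, 21.3 on IV, 5.93 on V and 15.1 on X.

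Only 2 pairs of members lie within 10000 bp of each other. *npp-15* ends 479 bp before *ran-2* on the same strand of chromosome III, and the 2 had 396 and 366 mean normalized counts per kb, a ratio of 1.08 that was 0.98 per kb of coding sequence. *xpo-2* and *imb-3* follow each other on the reverse strand of chromosome I across 3559 bp with no protein-coding gene between them, and *imb-3* was 1.43-fold above *xpo-2* per kb. Worm genes this close on one strand can be transcribed together as operons, which was not tested. A protein-coding neighbour ended within 1000 bp upstream on the same strand for 9 of the 39 members (23.1%), against 28.7% of the protein-coding genes in the table. The neighbours of these 9 members mostly had lower mean normalized counts than the member, and only *npp-15*, before *ran-2*, had a higher one. *spe-42*, which ends 67 bp before *npp-22*, had a mean normalized count of 6.42, against 1414 for *npp-22*.

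Exons of 15 members overlap those of another annotated gene, by less than 10% of the member's exon length in each case. The sources do not state whether the counting used strand, so reads of a member and of a gene opposite to it cannot be told apart there. Where both genes lie on the same strand, as *npp-3* and *K12D12.4* do, strand would not separate their reads. The largest share was at *ran-1*, where 95 bp (9.91% of its exons) overlap *rib-2*, a gene at 201 per kb. For *xpo-1* the overlap was 153 bp with *ZK742.6*, which had a mean of 45.0, and for *npp-3* it was 314 bp with *K12D12.4*, which had a mean of 8.86.

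Genes of neighbouring functions had medians per kb near that of the members. Of 13 mRNA export genes, 12 reached a mean normalized count of 100, with a median of 382 per kb. The highest was *aly-2*, for an adaptor of the export receptor, at 839 per kb, and the lowest was *nxf-1*, one of 2 receptor genes on the list, at 9.09 per kb, while its relative *nxf-2* had 474. All 14 genes of the nuclear envelope and lamina reached 100 as well, with a median of 499.82 per kb, a highest value of 687 (*lmn-1*, the lamin) and a lowest of 66.0 (*lem-2*, an inner membrane protein).

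Marker lists placed these levels among the cell types that a dissection could hold. The 11 oocyte markers had a median of 1474 per kb and ran from 457 (*lin-41*) to 1744 (*pos-1*), a range that also held 17 of the 39 members, from *npp-24* (460.2) up to *ran-1* (1488). Its lower end rests on *lin-41* alone, since the next marker, *puf-11*, had 864 and only *ran-1* and *ima-2* lay above that. The members' median of 409 was below each of the 11 oocyte markers. The 6 gonadal sheath markers, genes of the contractile cells around the oocytes, had a median of 281 per kb and reached 1117 (*inx-8*), with *ceh-18* lowest at 29.1. Sheath RNA was thus present, and its part in the members' levels was not tested. Medians were 15.8 for the 6 intestine markers, with a highest value of 74.4 (*vit-2*) and a lowest of 4.48 (*ifb-2*), and 26.8 for the 7 sperm markers found of 8, from 1.75 (*spe-9*) to 216 (*msp-49*). The 3 body wall muscle markers had a median of 114, from 48.4 (*myo-3*) to 268 (*unc-15*). Which cells, sheath or body wall muscle, gave these muscle transcripts was not tested. The levels of *npp-25* and *npp-26* fell in the range of the intestine and sperm markers. Both ranges also held the median of all genes, 14.2 per kb, and the source of these 2 transcripts was not tested.

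**Figure D4:**
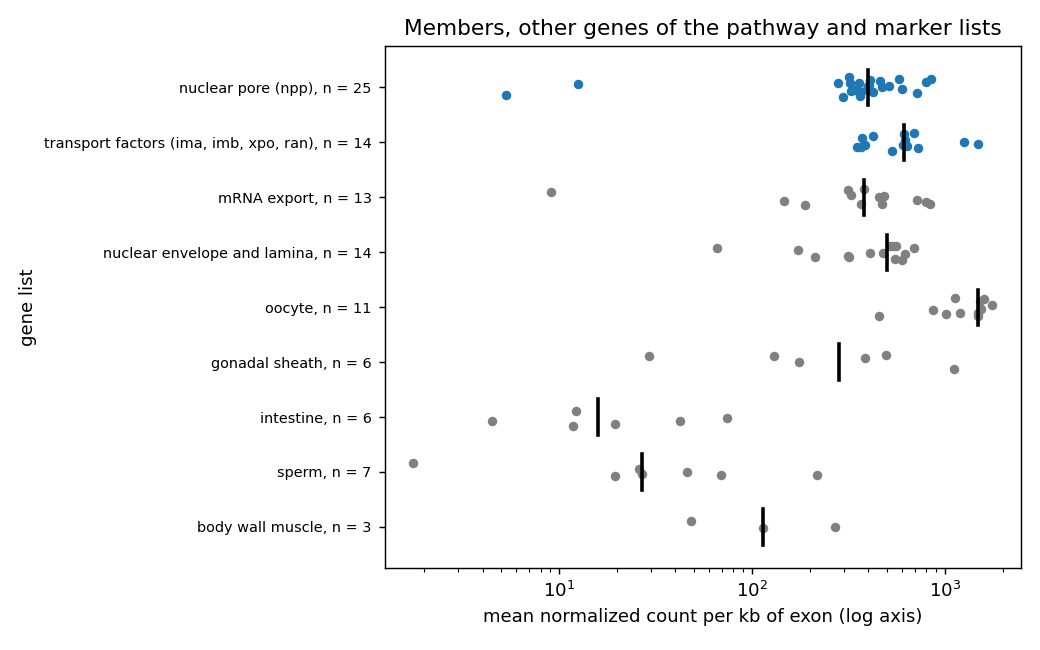
Each point is a gene at its mean normalized count per kb of exon (log axis), and each black line is the median of its list, with the pore and transport genes in blue above the other lists in grey. The transport factors and the nucleoporins other than *npp-25* and *npp-26* lie between the sheath and oocyte medians or close to them.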

How the data were processed

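Oocytes were dissected from *C. elegans* mothers on 300 mM NaCl or control NGM, and stranded total RNA libraries were made. Alignment by the authors was to WBcel235 with STARsolo quantification, followed by a filter on genes under 10 reads over all samples, and DESeq2. The table does not show that filter directly: 463 of its genes have a mean normalized count that, times 17 libraries, is under 10, and reads before scaling were not analysed here. The submitters' processing notes also name STAR and kallisto. Tool versions and the strand setting are not given in the sources used here. The authors' deposited table holds, per gene, a mean normalized count, which is a signal averaged over libraries of both groups after scaling by size factors. Its other 5 numeric columns hold the authors' own comparison (fold change, its error, a score, p and adjusted p) and were not used, so no test was made and no value of a single library enters.

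Means were divided by the union of annotated exons (Ensembl release 115 of WBcel235, 21399 of 21459 genes matched by identifier; 60 had no length). Percentiles were taken over all genes. Classes, gene lists and members were chosen with earlier results of these data known. Every member is named, and from the other lists the highest, the lowest and *mel-28*. *nxf-2*, *puf-11*, *rae-1* and genes beside members were named after their values were seen. Alternatives changed the count minimum (10, 100 or 1), the genes ranked, the length and the sum. The percentile code was checked on made-up values. Scripts ran in Python 3.11.15, with pandas 2.3.3 and numpy 2.4.6 for the values, scipy 1.17.1 for Spearman's rho, and matplotlib 3.10.9 for plots. *npp-27* and *msp-31* were not analysed here.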

Additional observations from a re-analysis of the deposited data

How the results depend on the processing

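No paired analysis was possible because the deposited table carries no value with a replicate number. Alternatives that start from library counts (DESeq2 against edgeR, no filter on low counts, the replicate number as a block, and leaving out each replicate) were not run either. The members' median percentile by mean normalized count, 96.3, was 92.9 among genes whose mean reached 10, and 88.4 per kb. The median percentile per kb, 88.4, was 78.1 among genes whose mean reached 10, and, in alternatives chosen after seeing the data, 78.4 among protein-coding genes with that minimum and 86.2 with the longest coding sequence as the length. The share of the table's mean normalized count, 1.16%, was 0.62% when the 15 members with overlapping exons were left out of the sum, which follows from the smaller sum. Also chosen after seeing the data was the coding sequence as the length for ratios of members and spans of classes, and 31 of these kept their direction and moved by less than 1.5 times. The ratio of *ima-1* to *ima-3* turned to 0.73 and that of *npp-15* to *ran-2* to 0.98. The ratio of *npp-22* to *npp-25*, which is also the span of the pore membrane class, moved to 58.9. The other alternatives moved a percentile by at most 1 point or a count or share by less than 1.5 times. The 10 highest members per kb were the same 10 with the longest transcript and with the coding sequence as the length. The means of *npp-25* and *npp-26* were the lowest of the members, and without values of single libraries their precision is unknown.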
